A study of Mus musculus with 15 samples.

Results

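The secreted Wnt inhibitors are 10 of the 56832 genes in the count table, taken by symbol: *Sfrp1*, *Sfrp2*, *Sfrp4*, *Sfrp5* and *Frzb* of the secreted Frizzled-related family, *Dkk1*, *Dkk2* and *Dkk3* of the Dickkopf family, *Wif1* and *Sost*. Their RNA was measured by bulk sequencing of cultured bone marrow mesenchymal stromal cells (MSCs) from 16 week old C57BL/6J mice. The TauT KO animals carry a global knockout of the taurine transporter gene *Slc6a6* (TauT-/-), and the WT controls are TauT+/+. The cells came from the marrow of femur and tibia, were grown in medium without ascorbic acid, and were enriched either by depleting CD45+, Ter119+ and CD31+ cells with magnets or by sorting. The 15 libraries carry the labels WT male (4), TauT KO male (4), WT female (3) and TauT KO female (4), and levels are given as CPM, the read count of a gene scaled to a common library size, here with TMM scaling for library composition.

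Wnt ligands bind Frizzled receptors and the co-receptors Lrp5 and Lrp6, which stabilizes β-catenin and turns on target genes. Secreted inhibitors act before this step. The Frizzled-related proteins and Wif1 bind the ligands, whereas Dkk1, Dkk2 and sclerostin, the product of *Sost*, bind the co-receptors. Dkk3 is a divergent member of its family whose action on the pathway depends on context. In bone, Wnt signaling favors osteoblast formation, and sclerostin is a product of mature osteocytes that restrains it.

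*Sfrp1* and *Dkk3* were the most abundant of the inhibitors, several members differed widely between libraries, and no member changed with the genotype at the adjusted threshold of 0.05. Of the 10 genes, 7 passed the filter on low counts, and 0 of these 7 were called by edgeR's quasi-likelihood test, while 1.16% of the 18263 genes tested were called. At an unadjusted p under 0.05 edgeR counted 0 of the 7 members, against 23.6% of all genes. DESeq2 called 0 members, where it called 12% of the genes to which it gave an adjusted p, and voom called 0, where it called 6.54% of all genes. At an unadjusted p under 0.05, DESeq2 counted 1 of the 7 members with an adjusted p, *Frzb*, against 15.2% of the 33207 genes with a count. That share is taken over a wider set than the 17489 genes with an adjusted p. voom counted 2 of the 7, *Frzb* and *Dkk2*, against 28% of all genes tested. The log2 fold changes of KO against WT were negative for 4 members and positive for 3, with a median of -0.41, beside a median of 0.00487 over all genes tested. The WT and KO values overlapped for all 7 tested members, and 1.12% of all genes had groups that did not overlap.

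Several properties of the libraries bear on these values. Total counts ran from 69764291 to 101575071 in male-labelled and from 12761107 to 20781070 in female-labelled libraries, so sex label and depth cannot be told apart. *Slc6a6* was present in both genotypes, at 586 to 2655 CPM in WT and 392 to 1571 CPM in KO (log2 fold change -0.94, edgeR adjusted p = 0.141). In 3 libraries, those labelled WT male 1, KO male 1 and WT female 3, *Xist* and *Ddx3y* went against the sex label. The libraries labelled KO male 1 and KO female 1, and those labelled WT male 1 and WT female 1, were much more alike than any other of the 105 pairs. Their scaled median absolute log2 ratios of 0.0976 and 0.108 lay above the 0.0547 and 0.0575 that counting alone gives, and the next pair had 0.253. The labels do not name the animal behind a library, so the p-values measure only the spread between these libraries. Reads were counted by strand, although the kit is not stated to mark it, and *Sfrp2*, *Frzb*, *Dkk2* and *Sost* overlap antisense genes. *Gm26771*, opposite *Sfrp2*, had 99 counts over all libraries beside 140824 for *Sfrp2*, and *Gm20659*, opposite *Sost*, had 23 beside 0. The genes opposite *Frzb* and *Dkk2* were not analysed here.

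Levels between genes were compared per kilobase of exon. By the median over the 15 libraries, *Sfrp1* had 217 CPM per kb, *Dkk3* 63.4, *Sfrp2* 22.1, *Sfrp4* 13.3, *Frzb* 4.37, *Dkk2* 2.23 and *Wif1* 0.825 CPM per kb. *Dkk1* had 0.0169 and *Sfrp5* 0.00637 CPM per kb, and *Sost* had 0. Neighbors in this order were often not separated from each other. *Sfrp1* exceeded *Dkk3* in 10 of 15 libraries, *Dkk3* exceeded *Sfrp2* in 11, and *Sfrp2* exceeded *Sfrp4* in 8. *Sfrp4* exceeded *Frzb* in 13 libraries, *Frzb* exceeded *Dkk2* in 11, and *Dkk2* exceeded *Wif1* in 9. The clearest step was from *Wif1* to *Dkk1*, with *Wif1* higher in 14 of 15 libraries.

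The make-up of the inhibitor RNA also varied. *Sfrp1* held the largest share of the summed level per kb in 10 libraries (6 WT and 4 KO), and *Dkk3* held it in the other 5, which were WT male 3, KO male 3, KO male 4, KO female 3 and KO female 4. The share of *Sfrp1* ranged from 31.6% to 84.0% (median 62.0%) in WT and from 8.11% to 65.4% (median 41.7%) in KO libraries. For *Dkk3* it was 4.06% to 52.5% (median 8.60%) in WT and 8.08% to 61.6% (median 36.4%) in KO libraries. The summed level ran from 176 to 1406 CPM per kb (median 727) in WT and from 29.8 to 1256 CPM per kb (median 296) in KO. The ranges of the genotypes overlapped in each of these measures.

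**Figure D1:**
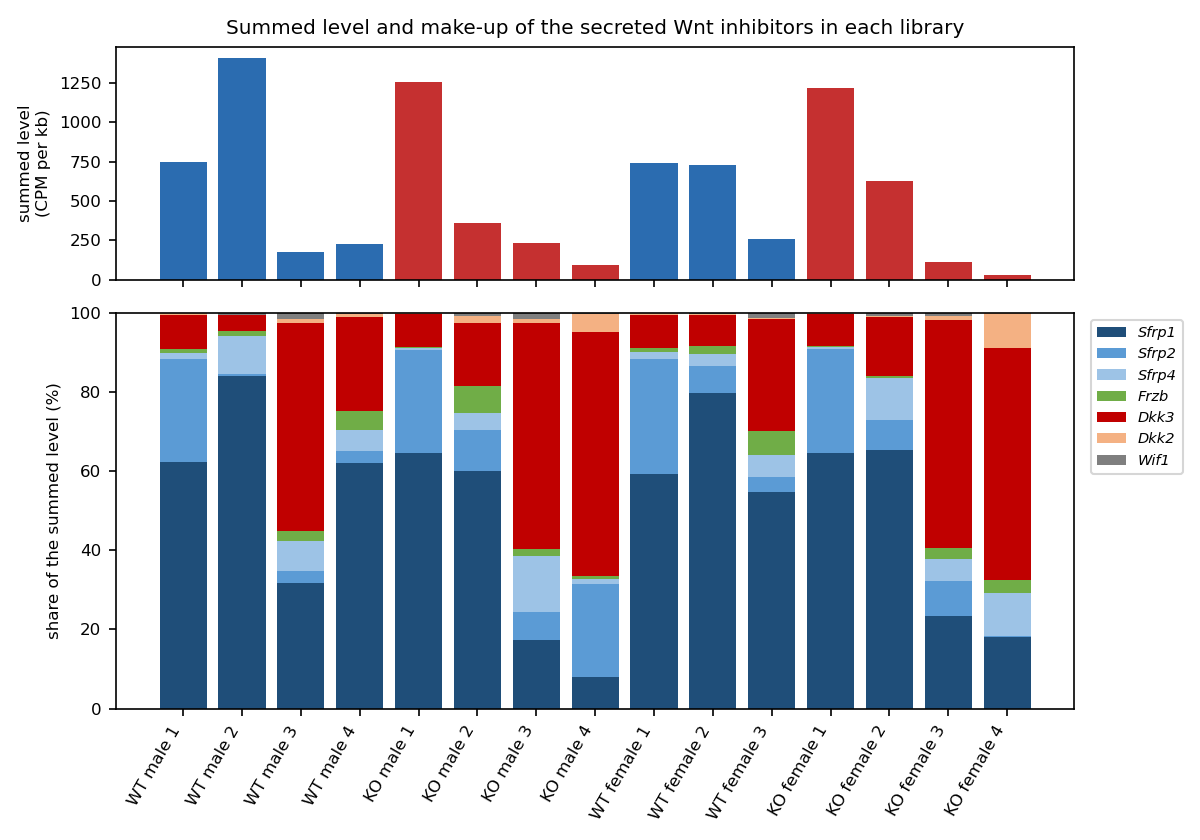
The upper bars show the summed level of the inhibitors in each library (CPM per kb of exon; blue WT, red KO), and the lower bars the share of each gene in that sum (%). *Sfrp1* fills most of 10 libraries, and *Dkk3* takes the largest share in the other 5.

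*Sfrp1* encodes a Wnt-binding antagonist, and its gene lies on chromosome 8 (GRCm39, 23901263 to 23939648, plus strand). In WT male libraries 1 to 4 it had 2250.1, 5703, 269.5 and 682 CPM, and in KO male libraries 1 to 4 it had 3914, 1046, 193 and 37.0 CPM. The WT female libraries had 2121, 2797 and 686 CPM, and the KO female libraries 3796, 1979.95, 124 and 26.1 CPM. Under both sex labels the lowest and the second lowest library were KO, but KO library 1 stood above all but 1 of the WT libraries. The log2 fold change was -0.58 (SE 1.00, 95% interval -2.71 to 1.56, edgeR adjusted p = 0.764). The high values of KO male 1 and KO female 1 come from a near-identical pair. With 1 library of each such pair the log2 fold change was -1.32 (female-labelled kept) or -0.97 (male-labelled kept). It was -1.65 without the 3 libraries that went against their sex label. The edgeR adjusted p in these fits was 0.519, 0.645 and 0.490. voom gave -1.55 (voom adjusted p = 0.324). Leaving out WT male 2 gave -0.042, and leaving out WT male 2 and KO female 4 gave 0.18.

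The libraries high in *Sfrp1* were also high in *Cxcl12*, a chemokine of marrow stromal cells and 1 of the 10 MSC markers. The 6 libraries with 11687 to 23170 CPM of *Cxcl12* had 2121 to 5703 CPM of *Sfrp1*. In the other 9 libraries *Cxcl12* was at 89.4 to 3630 CPM and *Sfrp1* at 26.1 to 1979.95 CPM. The remaining MSC markers summed to 2718 to 3698 CPM in the former and to 2431 to 4553 CPM in the latter, ranges that overlapped. The sum of the 7 adipocyte markers set the same libraries apart. It was 1344 to 3853 CPM in the 6 and 193 to 769 CPM in the other 9. The 6 libraries hold both near-identical pairs, with WT male 2 and WT female 2. In bulk samples, fewer cells of a type and less RNA per cell cannot be told apart, and the part of the cell make-up in the difference between genotypes was not tested.

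*Sfrp2*, another Wnt-binding member (chromosome 3, 83673481 to 83681623, plus strand), had the widest range. In WT male libraries 1 to 4 its levels were 449, 17.5, 13.2 and 16.6 CPM, and in KO male libraries 753, 86.8, 38.8 and 50.8 CPM. The WT female libraries had 495, 112 and 22.4 CPM, and the KO female libraries 738, 108, 22.2 and 0.215 CPM, the last from 4 counts. The 4 highest libraries were the 2 near-identical pairs, 1 pair of each genotype. The log2 fold change was 0.51 (SE 1.19, 95% interval -2.05 to 3.06, edgeR adjusted p = 0.832). Without the library labelled KO male 1 it was -0.54, so the direction rests on single libraries.

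*Sfrp4* encodes a Wnt antagonist needed for normal cortical bone (chromosome 13, 19807274 to 19817164, plus strand). Male-labelled WT libraries 1 to 4 had 50.6, 568, 55.5 and 49.2 CPM, and the KO libraries 27.0, 62.0, 135 and 5.30 CPM. Female-labelled WT libraries had 58.3, 94.1 and 58.1 CPM, and the KO libraries 25.0, 281, 26.6 and 13.6 CPM. WT libraries other than WT male 2 thus lay within 49.2 to 94.1 CPM, whereas KO libraries fell on both sides of that range. The log2 fold change was -0.79 (SE 0.89, 95% interval -2.69 to 1.12, edgeR adjusted p = 0.619), and without WT male 2 it was 0.19.

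*Frzb*, also named sFRP3, encodes a Wnt-binding protein first known from cartilage (chromosome 2, 80242313 to 80278304, minus strand). It had 25.8, 58.3, 15.8 and 39.6 CPM in WT male libraries 1 to 4, and 24.6, 50.6 and 57.3 CPM in WT female libraries. In KO male libraries 1 to 4 it had 10.0, 88.9, 15.5 and 2.33 CPM, and in KO female libraries 9.21, 8.61, 10.3 and 3.28 CPM. Of the 8 KO libraries, 7 lay below the lowest WT library, and KO male 2 was the highest of all 15. The mean was 38.9 ± 17.1 CPM (SD, n = 7) in WT and 18.5 ± 28.7 CPM (SD, n = 8) in KO libraries. The log2 fold change was -1.30 (SE 0.67, 95% interval -2.72 to 0.13, edgeR adjusted p = 0.253).

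A single library decided the test of *Frzb*. Without KO male 2 the log2 fold change was -2.21 (SE 0.43), with an edgeR adjusted p of 0.0354. In that fit 0.77% of the 16883 genes tested were called lower. With this library left out every KO value lay below every WT value, as for 0.613% of all genes in that direction. The closest values were 15.5 CPM in KO male 3 and 15.8 CPM in WT male 3. KO male 2 was chosen for its value of *Frzb*, so the separation followed from that choice, and no label gives a reason to leave it out. Both shares leave out KO male 2 for every gene, not the library that goes most against each gene. They are therefore no background for a library chosen in this way. The exact permutation test within the sex labels, on all 15 libraries, gave a mean difference of -1.74 in log2(CPM + 0.5) and a two-sided p of 0.0192, unadjusted for the 7 genes so tested. It took the near-identical libraries as separate and was not repeated without them. With 1 library of each near-identical pair the log2 fold change was -1.41 with the female-labelled and -1.25 with the male-labelled libraries kept, and it was -1.17 without the 3 libraries that went against their sex label. The edgeR adjusted p in these fits was 0.273, 0.382 and 0.408.

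*Dkk2* encodes a ligand of Lrp5 and Lrp6 (chromosome 3, 131790336 to 131886065, plus strand). In WT male libraries 1 to 4 it stood at 15.2, 2.18, 7.47 and 6.79 CPM, and in KO male libraries at 17.1, 29.1, 9.46 and 17.8 CPM. WT female libraries had 16.3, 2.77 and 4.18 CPM, and KO female libraries 15.3, 5.75, 5.68 and 11.4 CPM. The genotypes overlapped under both sex labels, where WT library 1 was the highest of its genotype, and across them. The log2 fold change was 0.79 (SE 0.46, 95% interval -0.19 to 1.77, edgeR adjusted p = 0.313), and it was between 0.56 and 1.28 when each library was left out in turn. The exact permutation test gave a difference of 0.96 with a two-sided, unadjusted p of 0.0608.

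*Dkk3* (chromosome 7, 111712904 to 111758760, minus strand) was the steadiest member. WT male libraries had 441, 390.4, 633 and 371 CPM, and KO male libraries 708, 391, 902 and 398 CPM. WT female libraries had 422, 399.7 and 501.5 CPM, and KO female libraries 673, 642, 434 and 119 CPM. Only KO female 4 fell below the WT range of 371 to 633 CPM, and 4 KO libraries lay above it. With a log2 fold change of 0.25 (SE 0.31, 95% interval -0.41 to 0.90, edgeR adjusted p = 0.658), its interval was the narrowest of the 7 members.

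*Wif1* (chromosome 10, 120869865 to 120936555, plus strand) was low. Its levels were 1.60, 18.6, 7.03 and 1.53 CPM in WT male and 2.07, 6.97, 9.66 and 0.956 CPM in KO male libraries. They were 1.07, 6.05 and 7.34 CPM in WT female and 1.79, 12.5, 1.99 and 0 CPM in KO female libraries. The 0 counts of KO female 4 allow up to 0.162 CPM, for counting error only. The groups covered each other under both sex labels, and the log2 fold change was -0.41 (SE 0.85, 95% interval -2.22 to 1.40, edgeR adjusted p = 0.806). It was 0.11 without WT male 2.

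**Figure D2:**
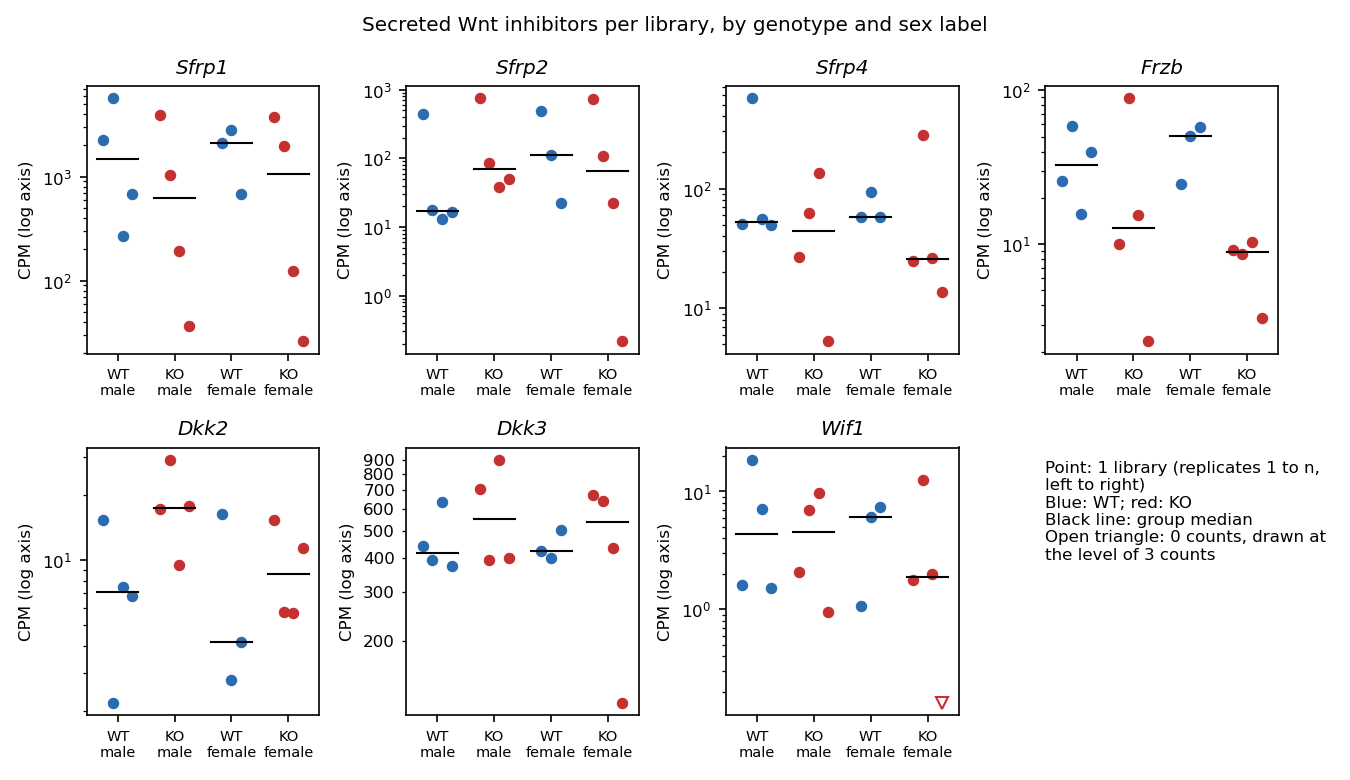
Each panel shows the level of 1 inhibitor in CPM on a log axis, with 1 point per library, in the order of the replicate numbers within each group of genotype (blue WT, red KO) and sex label, and a line at the group median. *Frzb* lies between 3.28 and 10.3 CPM in KO female libraries and at 24.6 CPM or above in WT female libraries. In male-labelled libraries its genotypes overlap, as do those of the other genes under both labels.

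The other 3 genes were at or near the limit of counting. *Dkk1*, a strong inhibitor that binds Lrp6 (chromosome 19, 30523263 to 30527065, minus strand), had 0 to 5 counts per library, 20 in all WT and 10 in all KO libraries. *Sfrp5* (chromosome 19, 42186410 to 42190691, minus strand) had 0 to 4 counts per library, 14 in WT and 4 in KO libraries. In a fit without the filter their log2 fold changes were -1.28 (SE 0.64, edgeR adjusted p = 0.358) and -1.89 (SE 0.88, edgeR adjusted p = 0.325), values that rest on these few counts. *Sost* (chromosome 11, 101853284 to 101857847, minus strand) had 0 counts in all 15 libraries, which allows at most 3 counts in each. Of the 5 osteocyte markers *Mepe* was likewise at 0, and *Dmp1*, *Phex* and *Fgf23* had means of at most 0.660 CPM in either genotype. The sum of the list, 25.0 to 127 CPM in WT and 85.1 to 221 CPM in KO libraries, was almost wholly *Pdpn*, which other cells express too (65.4 ± 41.9 CPM in WT, SD, n = 7, and 148 ± 49.7 CPM in KO, SD, n = 8, edgeR adjusted p = 0.0925). Of the 4 markers tested edgeR called 0. DESeq2 called *Pdpn* higher (log2 fold change 1.22, DESeq2 adjusted p = 0.0237) and the barely counted *Fgf23* lower (-2.80, DESeq2 adjusted p = 0.0461). Over all genes with an adjusted p it called 12%.

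**Figure D3:**
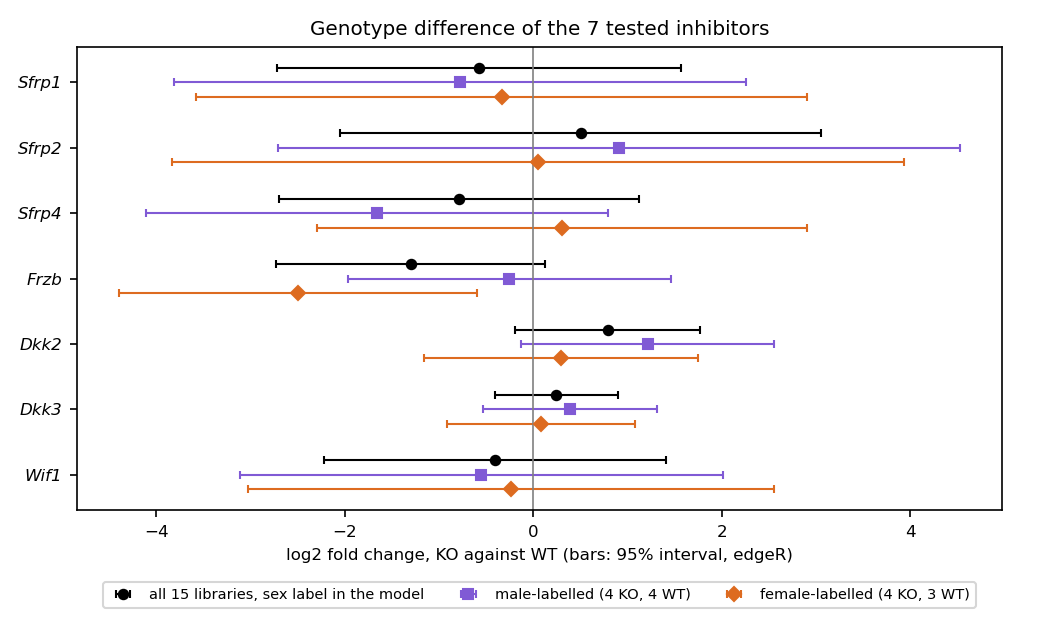
The log2 fold change of KO against WT (horizontal axis, no unit) is drawn for the 7 tested inhibitors with its 95% interval from edgeR, for all 15 libraries and within each sex label. The intervals of the fit on all libraries cover 0 for each gene, and the interval of *Frzb* in female-labelled libraries lies below 0, from -4.40 to -0.59.

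Within the sex labels, edgeR called 0 members and 0 genes in all, a background of 0%. In female-labelled libraries 1 of the 7 members, *Frzb*, had an unadjusted p under 0.05, as had 14.8% of all genes. Its log2 fold change there was -2.49 (SE 0.88, edgeR adjusted p = 0.265), and every KO female value lay below every WT female value, which held for 7.58% of all genes in this direction. In male-labelled libraries 0 members had an unadjusted p under 0.05, against 8.7% of all genes, and no member had groups apart, against 4.3% of all genes. *Frzb* had a log2 fold change of -0.26 (SE 0.80) among these, and -1.90 (SE 0.63) without KO male 2. Its male minus female difference of 2.24 (SE 1.18, edgeR adjusted p = 0.99993) did not pass the test and was 0.62 (SE 0.84) without that library. *Sfrp4* had the other large difference, with -1.66 (SE 1.14) in male-labelled and 0.30 (SE 1.21) in female-labelled libraries, and its male minus female difference of -1.96 (SE 1.66, edgeR adjusted p = 0.99993) did not pass the test either. Without WT male 2 the male value was 0.11 (SE 1.03) and the difference -0.15 (SE 1.45).

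For the difference of the genotype effect between sex labels, 0 of the 7 members had an unadjusted p under 0.05, against 1.62% of all genes. Between male- and female-labelled libraries themselves edgeR called 0 members and 0.0164% of all genes, and 0 members had an unadjusted p under 0.05, against 5.75% of all genes. The log2 differences of the members, male over female, ran from -0.30 for *Sfrp2* to 0.83 for *Frzb*. DESeq2 and voom called 0 members in any of these contrasts. At an unadjusted p under 0.05 both counted *Frzb* in the female-labelled libraries. The share was 9.85% of the 33207 genes with a count in DESeq2 and 19.2% of the genes tested in voom. In the male-labelled libraries voom counted *Dkk2*, against 10.7% of genes.

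The spread between libraries of 1 group was large for these genes. After removal of genotype and sex label, the residual SD of log2(CPM + 0.5) was 2.91 for *Sfrp2*, 2.47 for *Sfrp1*, 1.63 for *Sfrp4*, 1.502 for *Wif1*, 1.24 for *Frzb*, 0.894 for *Dkk2* and 0.696 for *Dkk3*. The median over the 13203 genes with a mean of at least 1 CPM was 0.340, and the 90th percentile was 0.976. All 7 members were above this median and 5 were above the 90th percentile.

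**Figure D4:**
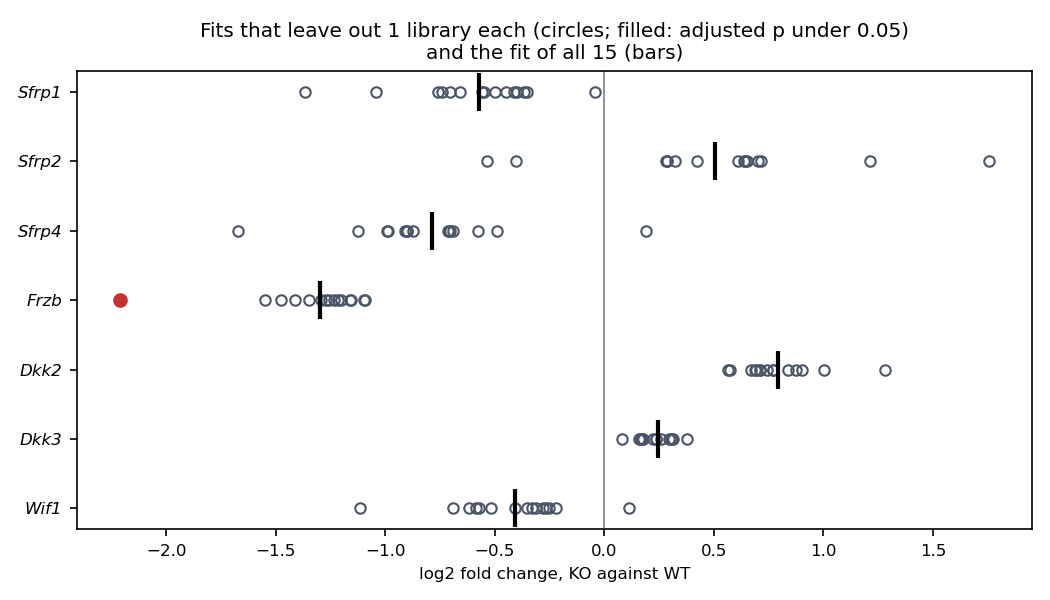
For each tested inhibitor, circles give the log2 fold change of KO against WT when 1 library is left out, and the bar gives the value with all 15 libraries. *Frzb* reaches -2.21 without KO male 2, the filled circle with an adjusted p under 0.05, and circles of *Sfrp2*, *Sfrp4* and *Wif1* lie on both sides of 0.

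Some members ran in parallel across libraries. Of the 21 pairs of the tested genes, compared on 13 libraries with 1 of each near-identical pair, the Wnt-binding *Sfrp4* and *Wif1* were the closest. Their log2 levels gave Pearson's r = 0.834 (permutation p = 0.00039, Benjamini-Hochberg adjusted over the pairs 0.00819) and Spearman's rho = 0.824 (permutation p = 0.00085). Without the 2 libraries farthest from the median of *Sfrp4*, r was 0.828, and it was 0.855 within male-labelled and 0.855 within female-labelled libraries. *Sfrp1* and *Sfrp2* gave r = 0.643 (permutation p = 0.0157, adjusted 0.0706) and rho = 0.571 (permutation p = 0.0444), with r = 0.378 in male-labelled and 0.928 in female-labelled libraries and 0.542 without the 2 farthest libraries. The same adjusted value of 0.0706 was found for *Sfrp1* with *Sfrp4* (r = 0.697, permutation p = 0.00758) and with *Frzb* (r = 0.662, permutation p = 0.0152) and for *Dkk3* with *Wif1* (r = 0.634, permutation p = 0.0168). Their rho was 0.588, 0.533 and 0.434 (permutation p = 0.0374, 0.0634 and 0.139). Without the 2 farthest libraries r was 0.408, 0.278 and 0.194. Leaving out the extremes narrows the range, which can lower r by itself, so this check cannot decide what the relations rest on. Within male-labelled libraries r was 0.590, 0.642 and 0.234, and within female-labelled libraries 0.627, 0.542 and 0.745. The remaining pairs had higher adjusted values. *Dkk2* ran opposite to *Sfrp4* (r = -0.575, permutation p = 0.039, adjusted 0.091) with rho = -0.451 (permutation p = 0.125), and r was -0.274 without the 2 farthest libraries, -0.699 in male-labelled and -0.469 in female-labelled libraries. It also ran opposite to *Wif1*, with r = -0.488 (permutation p = 0.0886, adjusted 0.169) and rho = -0.555 (permutation p = 0.0527), and neither relation passed the test. With *Wif1* r was -0.588 without the 2 farthest libraries, -0.531 in male-labelled and -0.688 in female-labelled libraries.

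**Figure D5:**
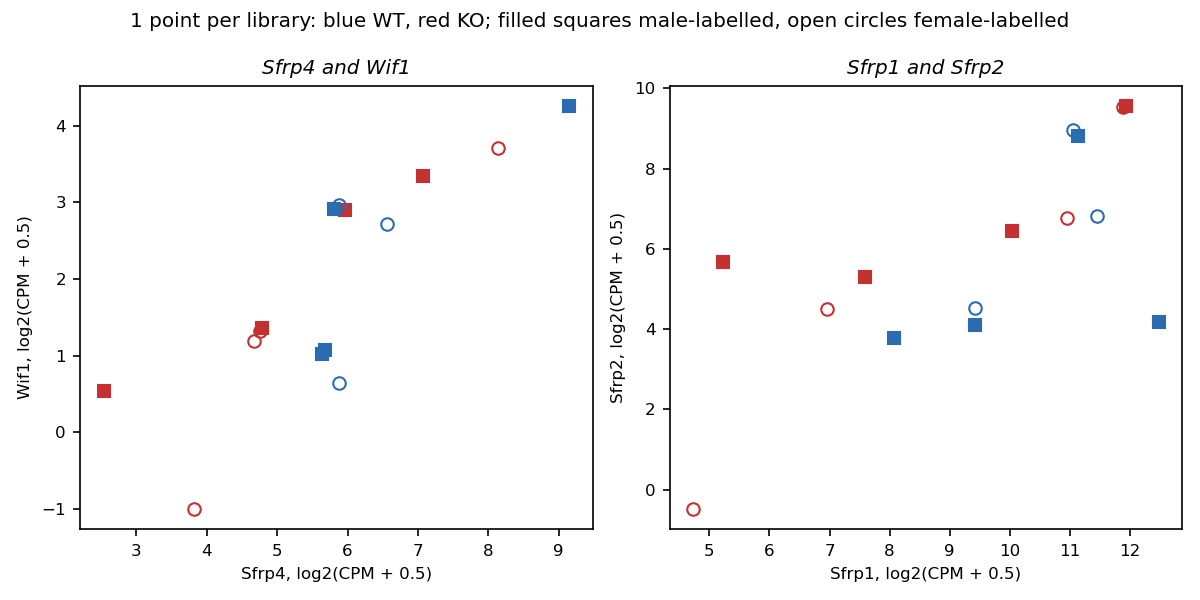
Points are libraries, placed by log2(CPM + 0.5) of *Sfrp4* and *Wif1* (left) and of *Sfrp1* and *Sfrp2* (right), blue for WT and red for KO, with squares for male-labelled and open circles for female-labelled libraries. *Sfrp4* and *Wif1* rise together over all 15 libraries (r = 0.827), and WT male 2 has the highest level of *Sfrp4* and *Wif1*. The relation within each genotype was not computed.

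Promoter sequence is shown for *Dkk2*, which acts on the co-receptors, and *Wif1*, which acts on the ligands, the tested members with the longest stretch outside exons. The stretches hold the bases before the RefSeq start that no GENCODE exon of the gene covers, on the plus strand at chr3:131790825-131791042 and chr10:120869659-120869864 of GRCm39. That of *Wif1* lies just before the GENCODE gene, whereas that of *Dkk2* lies inside it, since GENCODE has a transcript of *Dkk2* that starts earlier. Capitals mark matches, on either strand, to the TCF/LEF letters CTTTGA or CTTTGT, through which β-catenin acts, and to the TATA box letters TATAAA.
Dkk2: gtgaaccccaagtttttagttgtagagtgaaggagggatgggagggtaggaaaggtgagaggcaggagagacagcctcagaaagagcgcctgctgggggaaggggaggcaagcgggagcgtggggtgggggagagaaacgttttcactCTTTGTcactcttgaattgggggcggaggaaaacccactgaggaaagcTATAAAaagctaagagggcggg
Wif1: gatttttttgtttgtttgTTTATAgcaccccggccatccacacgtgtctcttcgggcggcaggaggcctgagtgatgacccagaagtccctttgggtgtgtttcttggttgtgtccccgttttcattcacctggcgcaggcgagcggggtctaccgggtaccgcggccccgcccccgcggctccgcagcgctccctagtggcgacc

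The *Dkk2* stretch of 218 bases held 1 TCF/LEF match, present in 24.7% of 32851 promoters over the same window, and 1 TATA match, present in 11%. The *Wif1* stretch of 206 bases held 0 TCF/LEF matches, where 24.0% of promoters have one, and 1 TATA match, where 9.38% do. It also was richer in CG, with 17 CpG and 61.7% G and C, beside 6 CpG and 55.0% in *Dkk2*. A match describes the letters only. The promoter table held 7 of the 10 genes and did not list *Sfrp1*, *Sfrp4* and *Dkk3*.

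By the highest Pearson's r of log2 levels over the 15 libraries among 13203 genes, each tested member had close companions, which are named as a description only. The 15 libraries include both near-identical pairs, and their depth differs between the sex labels. *Sfrp1* was most like *Plekhh2* (r = 0.954), *Podxl2* (0.947) and *Csad* (0.943), the last an enzyme of taurine synthesis. *Sfrp2* was most like *Lpcat3* (0.901), *Galnt13* (0.899) and *Hnrnpa2b1* (0.898), and *Sfrp4* was most like *Adamtsl3* (0.893), *Slc1a3* (0.878) and *Ccdc90b* (0.878). *Frzb* ran with *Tbxa2r* (0.928), *Apbb1* (0.928) and *Ptger1* (0.928), of which *Tbxa2r* and *Ptger1* encode prostanoid receptors. *Dkk2* had the loosest companions, *Rps27a* (0.818), *Smarcd2* (0.805) and *Atp5d* (0.801). *Dkk3* was most like *S100a16* (0.952), *Mex3a* (0.943) and *Nudcd2* (0.938), and *Wif1* was most like *Dhrs4* (0.935), *AA414768* (0.905) and *Bfsp1* (0.904). None of these 21 genes passed edgeR's adjusted threshold for genotype.

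The rest of the pathway was counted by role, and calls were found among the receptors. Of 15 receptors and co-receptors, 14 were tested, and 3 were lower and 0 higher in KO libraries, where 0.591% of all genes were called lower. These were *Fzd1* (log2 fold change -1.23, SE 0.28, edgeR adjusted p = 0.0481), *Fzd5* (-2.16, SE 0.41, edgeR adjusted p = 0.0355) and the co-receptor *Lrp6* (-0.99, SE 0.22, edgeR adjusted p = 0.0441), to which Dkk1 and Dkk2 bind. Their means fell from 144 ± 54.9 to 62.0 ± 24.0 CPM, from 246 ± 141 to 56.0 ± 26.5 CPM and from 211 ± 84.5 to 106 ± 18.7 CPM (SD, n = 7 WT and 8 KO libraries). The calls were near the threshold, and leaving out each library in turn kept that of *Fzd5* in 6 of 15 fits, of *Lrp6* in 4 and of *Fzd1* in 2. In the 4 fits of 12 or 13 libraries, 0 of these 3 calls remained, with edgeR adjusted p from 0.0756 to 0.156. Of these fits 1 leaves out KO female 4 and WT male 2, a choice made after seeing the data. The others leave out near-identical libraries or those that went against their sex label. With the replicate number as a block, *Fzd5* was still called (edgeR adjusted p = 0.0438), whereas *Lrp6* (0.0578) and *Fzd1* (0.0553) were not. DESeq2 also called *Fzd4* lower (log2 fold change -2.61, DESeq2 adjusted p = 0.00256), where the edgeR adjusted p was 0.0705.

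Of 14 target genes 13 were tested, and 1 was called lower and 0 higher. This was *Nkd1*, a feedback inhibitor inside the cell, with 23.6 ± 20.8 CPM in WT and 2.40 ± 1.74 CPM in KO libraries (log2 fold change -3.26, SE 0.74, edgeR adjusted p = 0.0497), a call kept in 2 of the 15 fits that leave out 1 library and in 0 of the 4 fits of 12 or 13 libraries, and not with the block (edgeR adjusted p = 0.0546). DESeq2 also called *Lgr5* and *Myc* higher. Of 19 ligands 11 were tested and edgeR called 0, whereas DESeq2 called *Wnt6* higher. Of 21 other secreted or surface modulators 13 were tested and edgeR called 0, whereas DESeq2 called *Draxin* and *Igfbp4* lower. Beside these counts, edgeR called 1.16% of all genes tested and DESeq2 12% of the genes with an adjusted p, in either direction. The median log2 fold change was -0.50 for receptors, -0.42 for targets, 0.061 for ligands and -0.57 for the other modulators.

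Markers of other cells were measured beside these. Of 14 macrophage markers all were tested and 13 had a positive log2 fold change (median 0.94), with *Cd68* called higher by edgeR and 6 called higher by DESeq2. Over all genes, in either direction, edgeR called 1.16% of those tested and DESeq2 12% of those with an adjusted p. The edgeR call of *Cd68* was kept in 3 of the 15 fits that leave out 1 library and in 0 of the 4 fits of 12 or 13 libraries (edgeR adjusted p from 0.069 to 0.156), and not with the block (0.0675). Their sums ran from 1354 to 8683 CPM in WT male, 6193 to 16054 in KO male, 7150 to 9211 in WT female and 6663 to 20154 CPM in KO female libraries, and none of the 14 was at 0 in all libraries. The library with the highest sum, KO female 4, was also the lowest for *Sfrp1*, *Sfrp2*, *Dkk3* and *Wif1*. All 7 adipocyte markers had a negative log2 fold change (median -1.31), with 0 called by edgeR and 4 called lower by DESeq2. Of the 10 MSC markers 0 were called by edgeR (median -0.30) and 1 by DESeq2, *Pdgfra*, which was lower (log2 fold change -1.44, DESeq2 adjusted p = 0.0334). *Lepr* was at 0 to 2.37 CPM. The part of these cells in the inhibitor levels was not tested.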

How the data were processed

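Bulk RNA-sequencing libraries of MSCs were grouped by the genotype and sex labels. The authors filtered reads with fastp 0.23.1, mapped them with STAR 2.7.9a to GRCm39 with GENCODE M31 and counted them on genes with featureCounts (Subread 2.0.1, reverse-strand setting). The deposited values are whole-number counts, not normalized, for 56832 genes in 15 columns, each matched to a sample. For their own test the authors ran DESeq2 on a model of sex plus condition.

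The genotype and sex terms were fitted by edgeR 4.0.16 under R 4.3.3 (filterByExpr on the 4 groups, TMM, quasi-likelihood test, sex label and genotype in the model, or 1 term per group), with Benjamini-Hochberg adjustment over all 18263 genes tested. The standard error is the fold change over the square root of F. DESeq2 1.42.0 and voom (limma 3.58.1) were alternatives. Only the model with sex label and genotype was tested on simulated counts, in edgeR, DESeq2 and voom. The exact permutation test covered 2450 splits of libraries within the sex labels on log2(CPM + 0.5), and correlations used 100000 permutations. Exon lengths and positions come from GENCODE M39, and promoters from RefSeq, matched to GRCm39. All 10 members are named, as are list genes past the threshold and the 3 genes most alike in pattern to each tested member. The members and lists were chosen with earlier results of these data known. Genes that only DESeq2 called, and single libraries, were named after their values were seen.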

Additional observations from a re-analysis of the deposited data

Results flagged for a closer look

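In 3 of the 21 groups of 4 libraries examined, 1 library stood apart by its gap to the nearest other library as a share of the group's range in log2 CPM, where chance gives 1.05 groups. *Sfrp2* was high in WT male 1, with a share of 0.922 (449 CPM, the other 3 at 13.2 to 17.5 CPM). *Sfrp4* was high in WT male 2, with a share of 0.951 (568 CPM, the others at 49.2 to 55.5 CPM). *Frzb* was low in KO female 4, with a share of 0.837 (3.28 CPM, the others at 8.61 to 10.3 CPM). The critical share for 4 libraries is 0.829. WT male 1 is also a library of a near-identical pair and went against its sex label. The cause of these gaps was not tested.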

How the results depend on the processing

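No member was called in 13 other fits of KO against WT, and 0 to 1 were called when each library was left out, the 1 being *Frzb* without KO male 2. Under the contrasts within and between sex labels 0 members were called in every alternative run. The log2 fold changes across the fits that leave out 1 library ran from -1.37 to -0.042 for *Sfrp1*, -0.54 to 1.75 for *Sfrp2*, -1.67 to 0.19 for *Sfrp4*, -2.21 to -1.09 for *Frzb*, 0.56 to 1.28 for *Dkk2*, 0.080 to 0.38 for *Dkk3* and -1.12 to 0.11 for *Wif1*. The sign turned for *Sfrp2* without KO female 1 (-0.41) or KO male 1 (-0.54), under voom (-0.28) and with a pseudocount of 0.1 in the permutation test (-0.078). It turned without WT male 2 for *Sfrp4* (0.19) and *Wif1* (0.11), in female-labelled libraries alone for *Sfrp4* (0.28) and under voom for *Wif1* (0.077). A fit without KO female 4 and WT male 2, chosen after seeing the data, gave 0.18 for *Sfrp1*, 0.35 for *Sfrp4* and 0.34 for *Wif1*. *Frzb* also had an exact permutation p of 0.0192 with that pseudocount. The filter of at least 10 counts in every library removed *Sfrp2* and *Wif1*.

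With the replicate number as a block, 0 members were called, and 102 genes in all were lower and 69 higher, against 108 and 103. The block moved *Sfrp2* to 0.96 (edgeR adjusted p = 0.0993) and *Frzb* to -1.60 (edgeR adjusted p = 0.122). The labels do not say that a number marks a shared animal or batch, so the block is an alternative only. Same-numbered libraries nevertheless deviated together (r over 0.1) in 6 of 7 pairs, a likeness that the main fit does not model. The block ended the calls of *Fzd1*, *Lrp6*, *Nkd1* and *Cd68* and kept that of *Fzd5*. Of 14 libraries with a same-numbered partner of the other genotype under their sex label, 11 were counted as closest to it. This does not hold over all pairs by the scaled median absolute log2 ratio. By that measure KO male 1 and WT male 1 were closest to KO female 1 (0.0976) and WT female 1 (0.108), and stood at 0.395 from each other.

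The number of genes called was unstable. Leaving out 1 library gave from 4 to 766 lower calls, 0 were lower in the 3 fits of 12 or 13 libraries without near-identical or contradictory ones, and DESeq2 called 2104 of 17489 genes. Counts of 0 to 5 per library limit what can be said of *Dkk1*, *Sfrp5* and *Sost*.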
